A study of Mus musculus with 10 samples.

Results

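Dazl, Ddx4, Mael, Stk31, Sycp3, Hormad1, Tex101, Slc25a31 and Tuba3a are 9 genes of the germline that are usually kept off in somatic cells by methylation of their promoters. They were chosen by name, and their Ensembl rows were matched to mouse symbols in the RNA-seq count table. All 9 were found among its 30677 genes, and all 9 passed the filter on low counts that left 20027 genes to test. The libraries came from TNGA cells, a mouse embryonic stem (ES) cell line in which 1 Nanog allele drives GFP, grown with serum and LIF. Cultures received either the vehicle, dimethyl sulfoxide (DMSO), or 100 μM MB-3, an inhibitor of the histone acetyltransferase Kat2a, for 48 hours, and DMSO made up 0.1% of the volume in every culture. Each group had 3 libraries, with the letters A, B and C, and the study addressed how Kat2a inhibition alters transcription in ES cells. All libraries are of 1 line, and a p-value measures only the spread between these cultures. DNA methylation was not measured, so the genes are called germline genes here and their promoters are described by sequence alone.

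In mammals, many genes that act in germ cells carry CpG-rich promoters that acquire DNA methylation when the embryo implants, placed by the de novo enzymes Dnmt3a and Dnmt3b and copied by Dnmt1. In ES cells a variant Polycomb complex, PRC1.6, also represses many of them. Its subunits Mga and Max recognise the E-box CACGTG, and its subunit E2f6 recognises E2F sites. Histone H3K9 methyltransferases add a further layer, and in migrating germ cells the promoters lose their methylation and the genes come on.

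Library totals ran from 42270312 to 51137896 counts. Over all tested genes the log2 fold changes had a median of 0.00 and their standard errors a median of 0.10. Kat2a itself, the target of the inhibitor, measured 130 ± 7.32 CPM (counts per 1000000 on normalized library sizes, mean ± SD, n = 3) with DMSO and 130 ± 4.62 with the inhibitor, so the transcript does not report whether the enzyme was inhibited. All 7 ES cell markers examined, Pou5f1, Sox2, Nanog, Esrrb, Klf4, Zfp42 and Sall4, were detected, with mean levels between 77.8 and 674 CPM. The libraries are of bulk RNA, in which fewer cells that transcribe a gene and less RNA per cell cannot be told apart.

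Most promoters of the germline genes held more CpG, the dinucleotide at which mammalian DNA is methylated, than the median protein-coding gene. In the window from 250 bases before to 50 bases after the RefSeq start (GRCm38.p6), in which all 9 genes were found, the median number of CpG was 24. Over 27025 RefSeq genes the median was 7 (quartiles 3 and 21), and over the 17492 protein-coding genes it was 13 (quartiles 3.75 and 24). The median of the 9 thus equals the upper quartile of protein-coding genes. Over 55 further germline genes, of lists described below, the median was 16. Ddx4 held 38 CpG, more than 95.2% of all genes, followed by Stk31 with 29, Dazl with 28, Mael and Hormad1 with 24 each, Slc25a31 with 22 and Tex101 with 19. Sycp3 with 15 and Tuba3a with 12 had the fewest, and Tuba3a was below the median of protein-coding genes, though above that of all genes. The observed number of CpG relative to that expected from the C and G content had a median of 0.78 in the germline genes and of 0.58 in protein-coding genes, and it was 0.47 in Tuba3a. For Tex101 and Ddx4, among others, the start used lies inside the gene as GENCODE draws it, which begins further upstream. The GENCODE start of Ddx4 lies within the window. That of Tex101, at 24676675 on the minus strand, lies outside its window of 24672001 to 24672300. The values of Tex101 may thus not describe the promoter at that start.

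**Figure D1:**
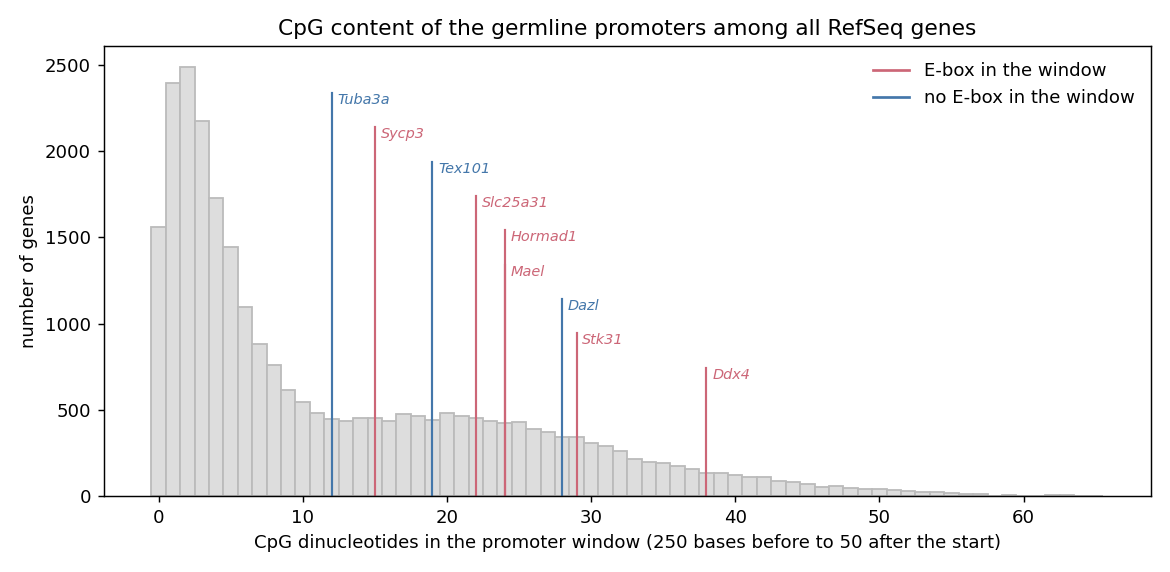
Number of CpG dinucleotides in the promoter window (x axis) and number of RefSeq genes (y axis, grey bars), with a line for each germline gene coloured by whether the window holds an E-box. The lines run from 12 CpG for Tuba3a to 38 for Ddx4, to the right of the median of 7 of all genes.

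The E-box CACGTG, which reads the same on both strands, stood in the promoter of 6 of the 9 genes (66.7%), against 8.09% of all genes and 8.91% of protein-coding genes. A core of the E2F site, TTCCCGC, searched on both strands, stood in 5 of the 9 (55.6%), against 5.29% and 6.84%. Ddx4, Sycp3, Hormad1 and Slc25a31 held both motifs, which 0.806% of protein-coding genes did. Among the 55 further germline genes, 23.6% held the E-box, 27.3% the E2F core and 7.27% both. Each motif contains 1 CpG, and the 9 promoters had a median of 24 CpG against 13 in protein-coding genes. Promoters of matched CpG content were not compared, so the part of CpG content in these shares was not tested. No E-box overlapped an E2F core in the 9 promoters. The genes were taken by name, as germline genes usually kept off by promoter methylation and with earlier results of these data known. Further criteria for the names are not stated. How far that choice sets these shares was not tested. A match is a run of letters and not a measured binding site.

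4 of the promoters are shown to span the range seen: Ddx4 has both motifs and the most CpG, Hormad1 has 2 E-boxes and an E2F core, Mael has an E-box far from its start, and Dazl is CpG-rich with neither motif. Each is printed 5′ to 3′ on the strand of the gene, and capitals mark every CpG, E-box and E2F core. Ddx4 is at chr13:112652261-112652560 (minus strand), with the E-box 29 and the E2F core 136 bases before the RefSeq start. GENCODE begins Ddx4 further upstream, at 112652475, so both motifs lie inside the gene as GENCODE draws it. Hormad1 is at chr3:95559427-95559726 (plus strand), with E-boxes 57 and 20 bases and the E2F core 95 bases before the start. Mael is at chr1:166238695-166238994 (minus strand), with its E-box 223 bases before the start, and Dazl is at chr17:50293571-50293870 (minus strand).
Ddx4: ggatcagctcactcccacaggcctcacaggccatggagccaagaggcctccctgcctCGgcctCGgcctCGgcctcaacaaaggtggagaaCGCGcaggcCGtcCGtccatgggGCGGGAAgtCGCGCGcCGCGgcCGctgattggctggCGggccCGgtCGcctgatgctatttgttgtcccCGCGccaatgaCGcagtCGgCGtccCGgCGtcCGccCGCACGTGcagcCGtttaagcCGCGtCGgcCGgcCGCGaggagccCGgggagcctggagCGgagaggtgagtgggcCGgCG
Hormad1: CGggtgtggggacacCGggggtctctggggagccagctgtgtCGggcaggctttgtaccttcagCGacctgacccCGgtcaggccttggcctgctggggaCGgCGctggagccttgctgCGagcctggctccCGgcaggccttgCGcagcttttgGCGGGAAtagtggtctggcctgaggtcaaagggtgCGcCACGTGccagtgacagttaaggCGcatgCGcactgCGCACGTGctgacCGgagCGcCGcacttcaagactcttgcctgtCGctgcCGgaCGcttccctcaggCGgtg
Mael: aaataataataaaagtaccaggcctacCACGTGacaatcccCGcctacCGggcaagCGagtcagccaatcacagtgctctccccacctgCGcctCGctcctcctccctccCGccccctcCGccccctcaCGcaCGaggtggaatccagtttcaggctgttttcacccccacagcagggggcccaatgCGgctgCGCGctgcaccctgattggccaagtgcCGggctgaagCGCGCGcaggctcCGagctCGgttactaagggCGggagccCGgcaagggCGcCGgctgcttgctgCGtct
Dazl: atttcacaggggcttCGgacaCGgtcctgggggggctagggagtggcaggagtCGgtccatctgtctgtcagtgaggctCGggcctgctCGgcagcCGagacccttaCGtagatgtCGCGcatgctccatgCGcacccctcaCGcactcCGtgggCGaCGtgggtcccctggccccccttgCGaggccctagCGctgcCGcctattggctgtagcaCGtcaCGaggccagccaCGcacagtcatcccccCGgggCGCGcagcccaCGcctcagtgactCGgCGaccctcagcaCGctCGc

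Transcripts of all 9 germline genes were present in every library. Levels were compared between genes as CPM per kb of merged exon, on which scale the median of the 30540 genes with an annotated length was 0.692 and that of the tested genes was 3.61. In the DMSO libraries the order was Tuba3a with 13.6 ± 0.298 CPM per kb, Sycp3 with 10.6 ± 1.26, Mael with 8.15 ± 0.749, Hormad1 with 6.84 ± 1.17, Ddx4 with 4.11 ± 0.118, Stk31 with 2.06 ± 0.00366, Dazl with 1.30 ± 0.191, Slc25a31 with 0.334 ± 0.0842 and Tex101 with 0.175 ± 0.0892 (mean ± SD, n = 3). In DMSO the libraries of Mael and Hormad1 overlapped in level. Every other pair of neighbours in this order was separate in the DMSO libraries. In MB-3 the order of Sycp3 and Mael was not kept, with means of 10.6 ± 0.476 and 10.7 ± 0.657 CPM per kb. For comparison, the ES cell markers lay between 26.8 CPM per kb for Klf4 and 299 for Pou5f1 in DMSO. All 9 germline genes lay below each of these markers, and 7 of the 9 stood above the median of all genes, and only Slc25a31 and Tex101 below it.

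**Figure D2:**
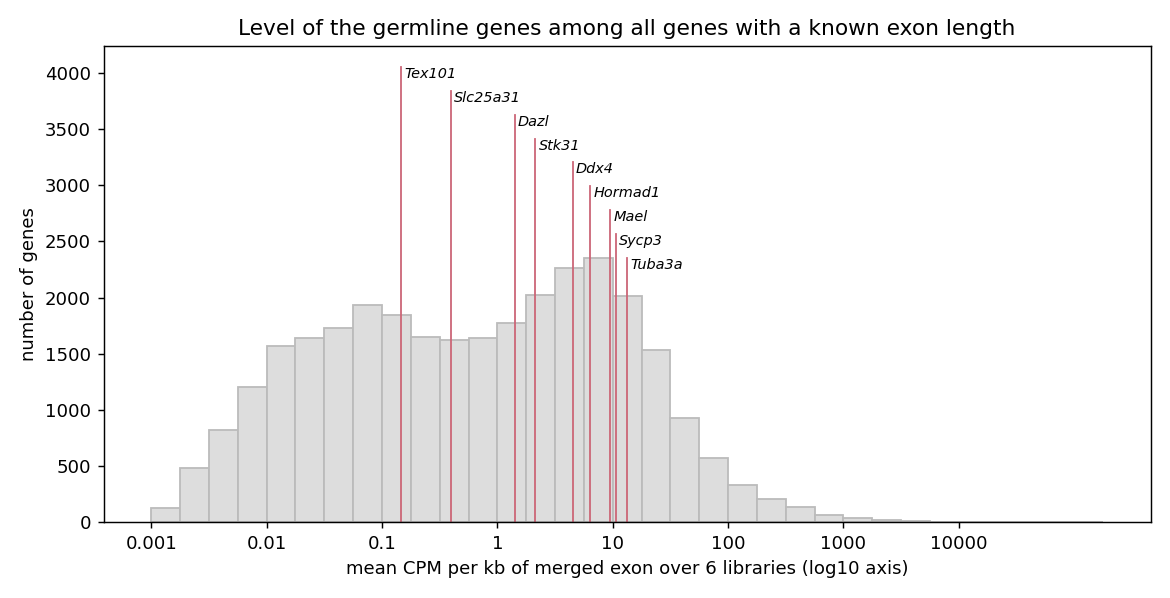
Mean level over the 6 libraries in CPM per kb of merged exon (x axis, log10) and number of genes (y axis, grey bars, without 31 genes below the axis), with a line for each germline gene. Tex101 and Slc25a31 lie below the median of 0.692 and the other 7 above it, up to 13.2 for Tuba3a.

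Tex101 was the only germline gene with fewer than 10 counts in a library, which was the case in 2 of the 6, and its 69 counts in total were the fewest. Slc25a31 had 236 counts in total, between 24 and 47 per library. The other 7 genes had between 198 and 1035 counts in every library.

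The effect of MB-3 was fitted over all tested genes with the quasi-likelihood method of edgeR, first with treatment alone and then with the replicate letter as a block. With treatment alone, 0 of the 9 germline genes passed a Benjamini-Hochberg adjusted p of 0.05, where 0.205% of all tested genes did. At an unadjusted p of 0.05, Ddx4 and Mael passed, where 10.9% of all tested genes did. With the block, 2 genes were called higher in MB-3, Ddx4 and Mael, where 3.22% of all tested genes were, and 0 were called lower, where 3.90% were. DESeq2 called Mael alone, where 1.11% of the genes with an adjusted p were called. In CPM, the groups did not overlap for 4 genes, Dazl, Ddx4, Mael and Slc25a31, all higher in MB-3, where 8.22% of all tested genes were separated in that direction, and for 0 genes in the other, where 7.37% were. The fitted direction was higher for 5 and lower for 4 of the genes, and their median log2 fold change was 0.10.

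**Figure D3:**
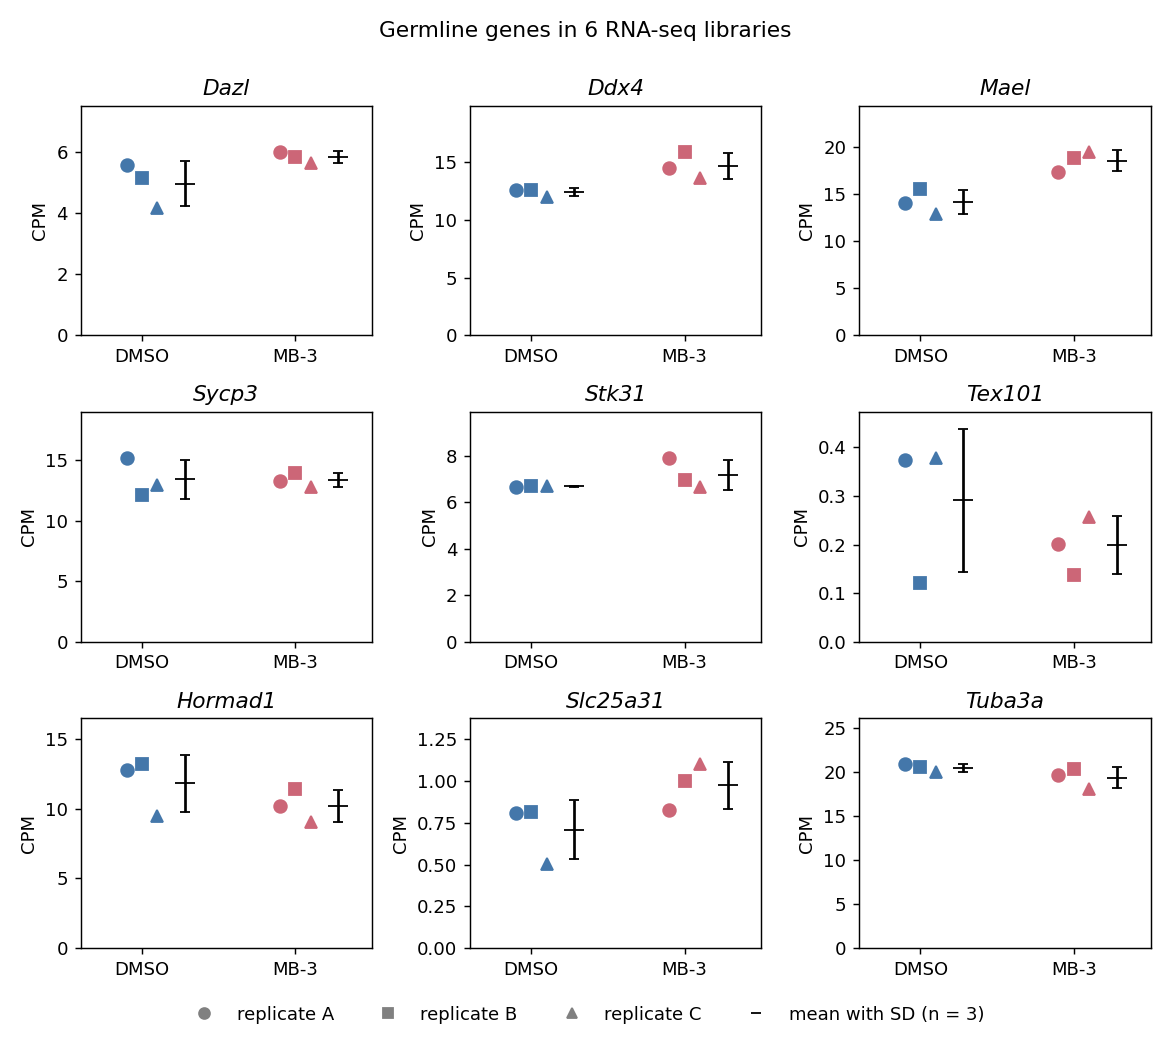
Level in CPM (y axis, from 0) of each germline gene in the DMSO and MB-3 libraries, with 1 symbol per replicate letter and the mean with SD beside them. Mael, Ddx4, Dazl and Slc25a31 do not overlap between the groups, with means of 14.1 and 18.5 CPM for Mael.

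Of Mael, Ddx4, Dazl and Stk31, the members that act on RNA or in germ granules, Mael had the largest fitted change. It encodes a protein of the piRNA pathway, which silences transposons, and lies on chromosome 1 from 166201201 to 166238747 (GRCm38, ENSMUSG00000040629). Its level was 14.0, 15.5 and 12.9 CPM in DMSO A, B and C and 17.3, 18.8 and 19.5 CPM in MB-3 A, B and C. Every MB-3 library lay above every DMSO library, and the difference was positive for each letter, at 0.30, 0.28 and 0.60 on the log2 scale. The fitted log2 fold change was 0.39 (SE 0.09, 95% interval 0.20 to 0.57, 1.31-fold). The adjusted p was 0.0980 by edgeR with Benjamini-Hochberg adjustment, and 4.65e-04 with the block. DESeq2 gave an adjusted p of 0.0132. Without DMSO B the log2 fold change was 0.46 with an edgeR adjusted p of 0.00968, and over all alternatives it ran from 0.33 to 0.46 with adjusted p up to 0.404.

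Ddx4 encodes the mouse Vasa, a DEAD-box RNA helicase of germ granules (ENSMUSG00000021758, chromosome 13, 112598333 to 112652475). It measured 12.6, 12.6 and 12.0 CPM in DMSO A, B and C and 14.5, 15.9 and 13.6 CPM in MB-3 A, B and C. All 3 MB-3 libraries were above all 3 DMSO libraries, and the DMSO libraries lay close together (12.4 ± 0.357 against 14.7 ± 1.16, SD, n = 3). The log2 fold change was 0.25 (SE 0.08, 95% interval 0.07 to 0.42, 1.19-fold), with an adjusted p of 0.287 by edgeR with Benjamini-Hochberg adjustment and of 0.0367 with the block. The block was the only alternative under which Ddx4 passed.

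Dazl, a germ cell RNA-binding protein that promotes translation, was the least abundant of these genes in CPM per kb (ENSMUSG00000010592, chromosome 17, 50279395 to 50293636). It had 5.57, 5.16 and 4.15 CPM in DMSO A, B and C and 6.01, 5.85 and 5.64 CPM in MB-3 A, B and C. The groups were separate, but the highest DMSO and the lowest MB-3 library were next to each other, and DMSO C stood below the other DMSO libraries. The log2 fold change was 0.23 (SE 0.12, 95% interval −0.03 to 0.50) with an edgeR Benjamini-Hochberg adjusted p of 0.522, and the adjusted p with the block was 0.202. Without DMSO C the log2 fold change was 0.12.

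Stk31, a Tudor-domain protein with a kinase-like domain found in germ cells (ENSMUSG00000023403, chromosome 6, 49395604 to 49469501), did not pass in any fit. Its DMSO libraries measured 6.67, 6.68 and 6.69 CPM and its MB-3 libraries 7.90, 6.95 and 6.67 CPM. The DMSO values were almost the same, and MB-3 C lay level with them. The log2 fold change was 0.10 (SE 0.10, 95% interval −0.12 to 0.32), with an edgeR Benjamini-Hochberg adjusted p of 0.753. It was 0.03 without MB-3 A and 0.15 without MB-3 C.

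Sycp3 and Hormad1 act on meiotic chromosomes, and neither passed in any fit. Sycp3 encodes a component of the lateral element of the synaptonemal complex (ENSMUSG00000020059, chromosome 10, 88459569 to 88473236). It measured 15.2, 12.1 and 13.0 CPM in DMSO A, B and C and 13.3, 14.0 and 12.8 CPM in MB-3 A, B and C. The groups overlapped and the letters differed in sign, and the log2 fold change was −0.01 (SE 0.09, 95% interval −0.21 to 0.20, edgeR Benjamini-Hochberg adjusted p = 0.987). Of its 1264 exonic bases, 52.2% lie opposite exons of Chpt1, an enzyme of phosphatidylcholine synthesis, and the use of strand in counting is not stated. Sycp3 had 1.31 to 1.68 times the counts of Chpt1 in each library, and per kb Chpt1 was far lower, with 1.10 ± 0.0853 CPM per kb in DMSO. How many of the Sycp3 reads came from Chpt1, or were lost to the overlap, cannot be told from the table.

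Hormad1 encodes a HORMA-domain protein of the meiotic chromosome axis (ENSMUSG00000028109, chromosome 3, 95559677 to 95587671). It measured 12.8, 13.2 and 9.50 CPM in DMSO A, B and C and 10.2, 11.4 and 9.09 CPM in MB-3 A, B and C. MB-3 was lower within each letter, by a log2 difference of −0.34, −0.21 and −0.06, while the groups overlapped because the C libraries were the lowest of both. The log2 fold change was −0.21 (SE 0.12, 95% interval −0.48 to 0.06, edgeR Benjamini-Hochberg adjusted p = 0.568), and it was −0.35 without DMSO C and −0.13 without DMSO B or without MB-3 C. With the block it was −0.21 (SE 0.08, 95% interval −0.37 to −0.04) at an adjusted p of 0.125.

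The counts of Hormad1 may share reads with those of Gm15529, a processed pseudogene on chromosome 6 from 12857397 to 12858390. The alignment of their transcripts spans 1049 positions, gaps included, at 92.8% identity, where the Gm15529 transcript has 994 bases. Of the 50-base words of Hormad1 exons, 21.4% also occur in Gm15529. Gm15529 had nearly as many counts as Hormad1, at a ratio of Hormad1 to Gm15529 of 0.981 to 1.18 over the libraries. The pseudogene averaged 11.8 ± 1.85 CPM with DMSO and 8.99 ± 0.628 CPM with MB-3 (SD, n = 3). Its log2 fold change was −0.40, with an edgeR Benjamini-Hochberg adjusted p of 0.227, or 0.00268 with the block. The handling of reads that align to several places is not stated, so the reads of the gene and of the pseudogene cannot be told apart here.

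The remaining genes encode a surface protein, a carrier and a tubulin. Tuba3a, an alpha-tubulin of the testis (ENSMUSG00000067702, chromosome 6, 125278274 to 125286042), was the most abundant of the 9. It measured 20.9, 20.6 and 20.0 CPM in DMSO A, B and C and 19.7, 20.4 and 18.1 CPM in MB-3 A, B and C. The groups overlapped through DMSO C and MB-3 B, and the log2 fold change was −0.08 (SE 0.07, 95% interval −0.23 to 0.08, edgeR Benjamini-Hochberg adjusted p = 0.740), with −0.12 without MB-3 B and −0.03 without MB-3 C. Of its 50-base words, 32.4% occur in its close copy Tuba3b, which had far fewer counts: Tuba3a had 20.5 to 27.2 times as many.

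Slc25a31, the ADP/ATP carrier of the mitochondria in testis (ENSMUSG00000069041, chromosome 3, 40708855 to 40726096), had 39, 41 and 24 counts in DMSO A, B and C and 41, 44 and 47 counts in MB-3 A, B and C. In CPM these were 0.810, 0.817 and 0.503 against 0.824, 1.00 and 1.10. The groups were separate by the gap between 0.817 and 0.824 CPM, which is smaller than the spread within either group. The log2 fold change was 0.45 (SE 0.26, 95% interval −0.11 to 1.01, edgeR Benjamini-Hochberg adjusted p = 0.562), and it was 0.25 without DMSO C.

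Tex101, a glycoprotein anchored on the germ cell surface (ENSMUSG00000062773, chromosome 7, 24668007 to 24676675), had 18, 6 and 18 counts in DMSO A, B and C and 10, 6 and 11 counts in MB-3 A, B and C. The B library was the lowest of each group, and the groups overlapped. The log2 fold change was −0.55 (SE 0.48, 95% interval −1.58 to 0.49, edgeR Benjamini-Hochberg adjusted p = 0.720), the widest interval of the 9. It was −0.93 without DMSO B and −0.31 without DMSO C.

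**Figure D4:**
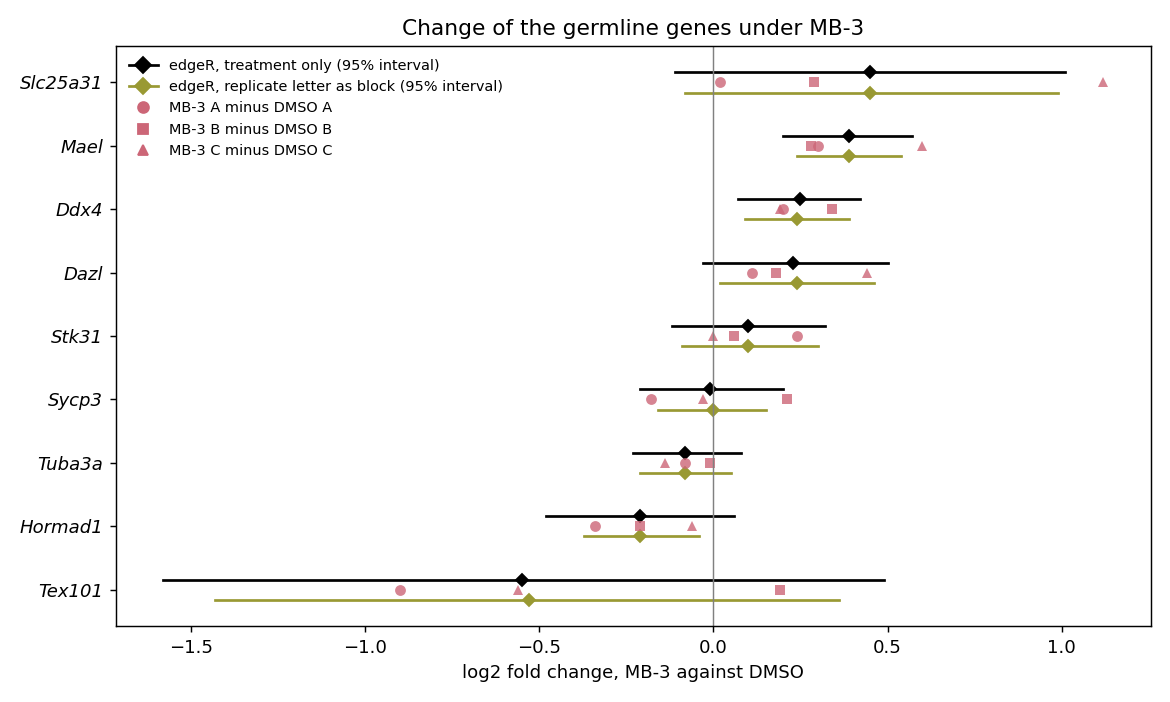
Log2 fold change of MB-3 against DMSO (x axis) for each germline gene, from the fit with treatment alone (black) and with the replicate letter as a block (olive), with 95% intervals, and the difference for each letter. The intervals of Mael and Ddx4 lie above 0 in both fits, and Tex101 has the widest, from −1.58 to 0.49.

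The block moved the estimates of the germline genes by at most a small amount and changed their errors more. The SE of Hormad1 went from 0.12 to 0.08 and that of Mael from 0.09 to 0.07, while those of Stk31 (0.10) and Slc25a31 (0.26) were the same in both fits. Dazl had a 95% interval of 0.02 to 0.46 with the block, yet did not pass after adjustment. Added over the 9 genes, the libraries held 88.9, 86.7 and 79.1 CPM in DMSO A, B and C and 89.9, 94.5 and 86.7 CPM in MB-3 A, B and C. The sums were higher in MB-3 within each letter, but overlapped between the groups.

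Other germline genes were examined in lists by function. Of 19 piRNA and germ granule genes, 15 were tested, with 10 fitted higher and 5 lower and a median log2 fold change of 0.10. By edgeR 0 passed with treatment alone, and with the block 3 passed, all higher, where 3.22% of all tested genes were called higher. DESeq2, with treatment alone, called 1 of them, Tex19.1, at an adjusted p of 0.0371. Tex19.1, which protects germ cells and placenta from transposons, averaged 26.6 ± 1.15 CPM with DMSO and 33.0 ± 3.30 with MB-3 (log2 fold change 0.31, edgeR Benjamini-Hochberg adjusted p = 0.151, and 0.00132 with the block). Mov10l1, the helicase that starts piRNA processing, had 6.10 ± 0.611 and 7.91 ± 0.732 CPM (log2 fold change 0.37, adjusted p = 0.235, and 0.0206 with the block). Tdrd1, a Tudor protein of germ granules, had 1.73 ± 0.348 and 2.59 ± 0.314 CPM (log2 fold change 0.58, adjusted p = 0.271, and 0.0345 with the block). For these 3 genes, as for Mael and Ddx4, no DMSO library reached the lowest MB-3 library. In the list only these 3 of the 15 had separate groups, where 8.22% of all tested genes were separated upward. Abundant members of the same list did not pass: Tdrd12 had 64.4 ± 2.56 and 68.9 ± 2.70 CPM, Rnf17 had 26.3 ± 2.79 and 26.3 ± 0.989 CPM, and Ddx25 had 9.32 ± 1.44 and 9.21 ± 0.956 CPM.

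Of 33 meiotic chromosome genes, 32 were in the table and 29 were tested, with 13 fitted higher and 16 lower and a median log2 fold change of −0.04. None passed with or without the block by edgeR. With treatment alone 0 had an unadjusted p under 0.05, where 10.9% of all tested genes did. The most abundant were Trip13, an ATPase that remodels HORMA proteins, with 70.8 ± 0.412 and 75.7 ± 3.79 CPM, and the cohesin subunit Stag3, with 72.6 ± 5.49 and 69.0 ± 2.92 CPM. Hsf2bp, a protein of meiotic recombination, had 62.7 ± 1.45 and 60.3 ± 3.58 CPM, and Syce2, of the central element, had 47.5 ± 6.79 and 48.9 ± 5.47 CPM.

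Of 14 other genes with germline promoters, 12 were tested, 3 fitted higher and 9 lower, with a median log2 fold change of −0.17. With the block 1 passed, lower in MB-3, where 3.90% of all tested genes were called lower. This was Sohlh2, a transcription factor of early germ cells, at 12.1 ± 1.26 CPM with DMSO and 10.0 ± 0.674 with MB-3 (log2 fold change −0.27, edgeR Benjamini-Hochberg adjusted p = 0.307, and 0.0380 with the block). Taf4b, a germ cell subunit of TFIID, had 35.6 ± 0.704 and 38.9 ± 0.848 CPM, and Rpl10l, the testis copy of a ribosomal protein gene, had 20.4 ± 0.211 and 18.2 ± 0.426 CPM. D1Pas1, a DEAD-box helicase of the testis, had 35.1 ± 1.96 and 35.3 ± 3.23 CPM. Sequence shared with other genes was not searched for Rpl10l or D1Pas1, so how many of their reads came from related genes is not known. The groups did not overlap for 5 of the 12, Taf4b higher in MB-3 and Sohlh2, Rpl10l, Pdha2 and Magea4 lower. Over all tested genes 8.22% were separated upward and 7.37% downward. Whether this list and the piRNA list differ in direction was not tested.

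**Figure D5:**
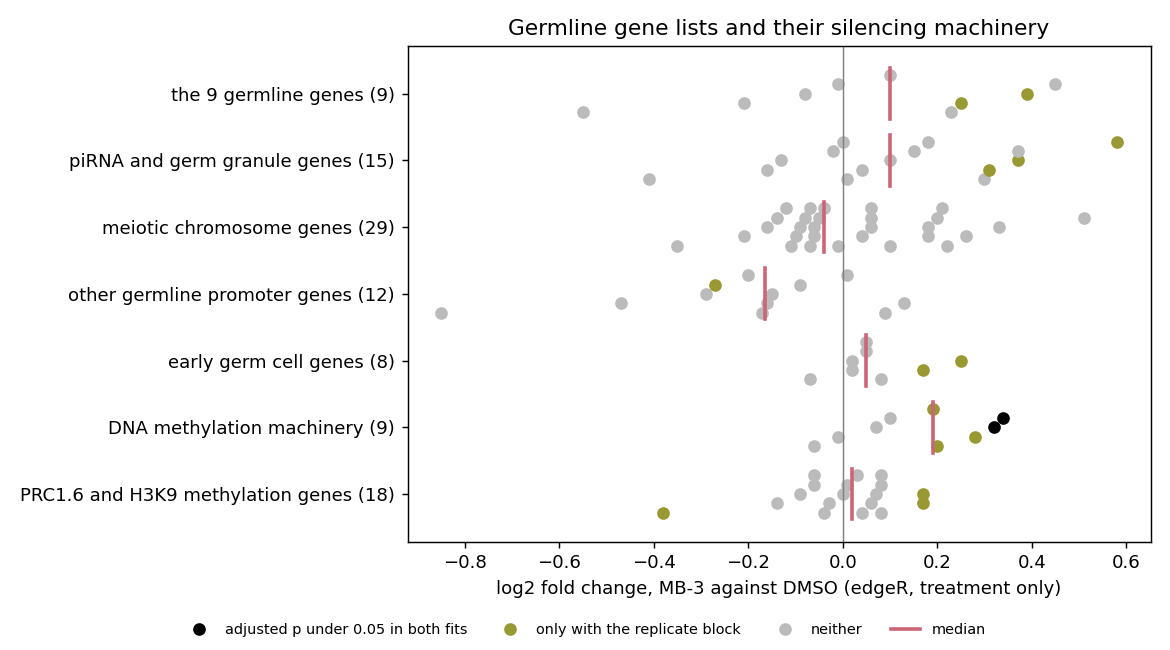
Log2 fold change of MB-3 against DMSO (x axis) for every tested gene of 7 lists, with 1 dot per gene coloured by the fit in which it passed an adjusted p of 0.05 and a red bar at the median of each list. The medians run from −0.17 for the other germline promoter genes to 0.19 for the DNA methylation genes, whose Dnmt3a and Dnmt3b are the only black dots.

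Among 9 genes of the DNA methylation machinery, Dnmt3b had 346 ± 8.16 CPM in DMSO and 432 ± 6.09 in MB-3 (log2 fold change 0.32, edgeR Benjamini-Hochberg adjusted p = 0.0358) and Dnmt3a 68.4 ± 2.80 and 86.4 ± 3.43 (0.34, adjusted p = 0.0485). With treatment alone these 2 of the 9 were called, where 0.205% of all tested genes were. With the block 5 of the 9 were called higher, Tet1, Tet2 and Dnmt3l beside these, where 3.22% of all tested genes were. Dnmt1 had 307 ± 13.5 and 328 ± 4.25 CPM with an edgeR adjusted p of 0.180 with the block.

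Of 18 genes of PRC1.6 and of H3K9 methylation, all were tested, 10 fitted higher and 8 lower, with a median log2 fold change of 0.02. With treatment alone 0 passed by edgeR and 3 had an unadjusted p under 0.05, where 10.9% of all tested genes had one. With the block 3 passed, 2 higher and 1 lower, where 3.22% of all tested genes were called higher and 3.90% lower. The H3K9 methyltransferases Setdb1, at 142 ± 5.90 and 159 ± 4.74 CPM, and Ehmt1, at 102 ± 3.92 and 115 ± 3.47 CPM, were higher (log2 fold change 0.17 each, edgeR Benjamini-Hochberg adjusted p = 0.0152 and 0.0180 with the block). The PRC1.6 subunit Yaf2 was lower, at 6.80 ± 1.09 and 5.23 ± 0.668 CPM (log2 fold change −0.38, adjusted p = 0.0200 with the block). Mga, which carries the E-box binding domain of the complex, had 327 ± 51.5 and 347 ± 17.0 CPM, with an adjusted p of 0.779.

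Markers of other cells that could carry germline transcripts were measured as well. Of 9 markers of late spermatids and oocytes, 6 were in the table and 2 were tested, and their summed level was 3.13 to 3.81 CPM with DMSO and 3.36 to 3.78 with MB-3, most of it Zp3, a protein of the egg coat. The spermatid protamine Prm1 had 0 counts in 5 libraries and 3 counts in MB-3 C. Of 6 markers of gonadal somatic cells 3 were tested, and their sum was 10.2 to 10.9 CPM with DMSO and 8.84 to 11.1 with MB-3, most of it Star, a cholesterol transport protein of steroid-making cells, which had 9.85 ± 0.606 and 9.10 ± 1.23 CPM. Over the 6 libraries Star had 2.30 CPM per kb, above the 1.41 of Dazl and the 2.14 of Stk31. The 7 markers of the 2-cell-like state, a minor state of ES cultures, summed to 0.944 to 1.93 CPM with DMSO and 1.45 to 2.16 with MB-3. The sums of these lists overlapped between the groups.

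Fibroblast markers were fitted lower in MB-3. Of 9 genes 6 were tested, and all 6 were fitted lower (median log2 fold change −0.43). With the block 2 passed, both lower, where 3.90% of all tested genes were called lower. Col1a2 had 1.87 ± 0.546 and 0.773 ± 0.278 CPM and Col1a1 1.05 ± 0.254 and 0.418 ± 0.166 CPM, with edgeR Benjamini-Hochberg adjusted p of 0.106 and 0.145 with treatment alone and of 1.20e-04 and 0.00226 with the block. DESeq2 called Col1a2, at an adjusted p of 0.0101. The groups overlapped for Col3a1, Dcn and Pdgfra, with log2 fold changes of −0.13, −0.05 and −0.37, and these did not pass in either edgeR fit. The sum of the list was 7.19, 4.92 and 8.39 CPM in DMSO A, B and C and 3.62 to 4.90 CPM in MB-3. DMSO C, the lowest DMSO library for Dazl, Ddx4, Mael, Hormad1, Slc25a31 and Tuba3a, had the highest fibroblast sum, and the part of these cells in the results was not tested.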

How the data were processed

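RNA-seq was analysed in 6 libraries of TNGA cells, 3 per treatment. The authors deposited raw counts for each Ensembl gene, which they made with GenomicAlignments over exons after trimming the single-end reads and mapping them to mm10 by Bowtie. Versions, annotation release, use of strand and treatment of multiply aligned reads are not given in the sources used here. Counting without strand can change the counts of genes that lie opposite each other, in a direction that depends on counting rules not given. Depth limits Tex101 and Slc25a31. No row lacked a gene. Of 30677 identifiers, 30540 were given a symbol, a position and a merged exon length by GENCODE M21 (GRCm38). The H3K9ac peak lists, deposited on mm9 as positions, were not used because no mm9 annotation was at hand.

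Groups and letters came from the labels. Genes were kept by filterByExpr (minimum count 10), scaled by TMM and tested with glmQLFit and glmQLFTest in edgeR 4.0.16 (R 4.3.3) with treatment alone, which departs from the DESeq2 test of the study's methods, used here as an alternative. P-values were adjusted over all 20027 tested genes by Benjamini-Hochberg at 0.05. Intervals are 95% from the fit. CPM are counts per 1000000 of normalized library size, with SD over 3 libraries. Alternatives were the replicate letter as a block, RLE scaling, no filter, a mean of at least 50 counts, DESeq2 1.42.0, limma-voom (limma 3.58.1) and each library left out. The fit was tested on simulated data. Replicates differed by 8.50 to 17.5 chi-square units per gene, so none was a repeat deposit. Shared sequence was found with words of 50 bases and BLAST 2.17.0, and plots were drawn in Python 3.11.15 with matplotlib 3.10.9. Promoter windows are RefSeq's (GRCm38.p6), with CpG counted in the first listed start of a gene and motifs in any. The genes and lists were chosen with earlier results of these data known. The text names all 9 genes and, from each other list, up to 6 genes called in either edgeR fit and the 4 with the highest mean CPM, in part for lists given as background.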

Additional observations from a re-analysis of the deposited data

How the results depend on the processing

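Over all genes, edgeR with treatment alone called 41, against 194 without a filter, 24 with a mean of at least 50 counts, 192 with DESeq2, 18 with limma-voom and 1425 with the replicate block. Leaving out 1 library gave 0 to 520 calls, the most without DMSO B and 0 without MB-3 A or without MB-3 B, where 1440 and 1716 genes had an unadjusted p under 0.05. Of the 9 germline genes, 0 were called with treatment alone, 1 without a filter, 1 with DESeq2, 2 with the block, and 0 to 1 when a library was left out. The 1 gene was Mael each time, and without a library only in the case of DMSO B. Sycp3, at −0.01, had the opposite sign with limma-voom (0.00), without DMSO A (0.09) and without MB-3 C (0.02), and ran from −0.08 to 0.09 over the libraries left out. The other 8 genes kept their direction under every alternative that could be fitted. Tex101 and Slc25a31 fell below the mean of 50 counts and have no value there.

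The replicate letters were not taken as pairs. Deviations from the group means of libraries that share a letter correlated at 0.08 for A, 0.23 for B and 0.19 for C over 20024 genes, and those of other letters at −0.19 to −0.02. Every library correlated best with its own letter, a hint from the data and not from the design, so a call made only with the block rests on this choice. Depth limits Tex101 and Slc25a31, and strand and multiple alignment limit Sycp3, Hormad1 and Tuba3a.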

Other observations

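Genes of early germ cells were measured beside the 9 germline genes. Of 9 such genes 8 were tested, 7 fitted higher and 1 lower, and the median of their log2 fold changes was 0.05. With treatment alone 0 passed by edgeR and 2 had an unadjusted p under 0.05, and with the replicate block these 2 passed, both higher. Over all tested genes 10.9% had an unadjusted p under 0.05, and the block called 3.22% higher. Ifitm3, a membrane protein of early germ cells, had 68.4 ± 4.07 CPM with DMSO and 81.4 ± 9.47 with MB-3 (log2 fold change 0.25, edgeR Benjamini-Hochberg adjusted p = 0.258, and 0.00106 with the block). Tfap2c, a transcription factor of germ cell specification, had 63.4 ± 2.79 and 71.2 ± 0.733 CPM (log2 fold change 0.17, adjusted p = 0.291, and 0.0322 with the block). Prdm1, with 40.7 ± 3.91 and 42.0 ± 1.79 CPM, and the receptor gene Kit, with a log2 fold change of 0.08 (SE 0.06), did not pass in either fit.

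Of the somatic relatives of Tuba3a and Slc25a31, 6 were more abundant than the germline copies, and Tuba8, with 1.46 ± 0.264 and 1.08 ± 0.159 CPM, was below Tuba3a. Of 7 such genes all were tested, 2 fitted higher and 5 lower, and 0 passed in either edgeR fit or at an unadjusted p under 0.05 with treatment alone. Tuba1b had 1230 ± 85.1 and 1180 ± 71.3 CPM and Tuba1a 754 ± 44.9 and 713 ± 38.6 CPM. The ADP/ATP carriers Slc25a4 and Slc25a5 had 226 ± 12.1 and 223 ± 17.5 CPM and 190 ± 13.1 and 197 ± 16.4 CPM.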
